A study of Rattus norvegicus with 32 samples.

Results

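The comparison described here followed the livers of ozone-exposed rats from the end of the second exposure to 18 h later. It was made of the 10 arrays, of 32 in the whole series, whose titles give ozone and either 2 days at 0 h (5 arrays) or 2 days at 18 h (5 arrays), taken as labelled. The rats were 10-week-old male Wistar Kyoto rats of 250 to 300 g, and each group had breathed ozone at 1 ppm for 6 h on each of 2 days. The same hours were covered by 10 arrays from rats that breathed filtered air, 5 at the end of day 2 and 5 at 18 h. The other 12 arrays came from the end of day 1. They entered the common estimate of the spread, the choice of each gene's brightest probe set and the comparison of arrays with groups. Total liver RNA was hybridised to Affymetrix HT Rat 230 PM arrays, on which a set of short probes reports on 1 transcript. Nothing in the labels ties each array to an animal of its own, so the p-values measure the spread between these samples, which may be partly technical. The 18 h harvest also fell at another clock time than the end of exposure, which holds for the air groups too.

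Ozone is an oxidant gas that reacts in the lining of the airways, and the liver is reached through circulating hormones, cytokines and metabolites. Glucocorticoids and adrenaline, the hormones of the stress response, raise hepatic amino acid breakdown and gluconeogenesis, which turn protein into glucose and urea. The transcription factor NRF2 (gene Nfe2l2) drives genes of glutathione synthesis and detoxification, and heat shock factors drive genes of protein-folding chaperones. In bulk liver RNA, fewer cells of a type and less RNA per cell cannot be told apart.

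Of the 20 arrays of day 2 and 18 h, 7 lay closer to another group than to the one on their label, 1 of ozone and 6 of air. Each array was set against the mean of the other arrays of each group, as a correlation of log2 values across genes after centring. The array labelled day 2 ozone replicate 5 had r = -0.23 with the other day 2 ozone arrays and r = 0.64 with ozone at 18 h. The other 4 day 2 ozone arrays had r between 0.46 and 0.68 with their own group and between -0.29 and -0.01 with ozone at 18 h. The 5 ozone arrays at 18 h lay with their own group, at 0.56 to 0.78. Among the air arrays, day 2 replicate 5 lay with day 2 ozone (r = 0.56, against -0.50 with its own group). At 18 h, air replicate 1 lay with ozone at 18 h (r = 0.65, against 0.25) and air replicate 5 with day 1 air (r = 0.54, against 0.12). Day 2 air replicates 1 and 2 also lay closer to day 1 air (r = 0.64 against -0.05, and 0.55 against 0.25). Air replicate 3 at 18 h was close to none, with r = 0.14 for ozone at 18 h and 0.08 for its own group. All arrays stayed under their labels. Ozone replicate 5 at 18 h had a 3' to 5' actin signal ratio, a sign of RNA length, of 3.5, against 2.38 to 2.89 on the other 9 ozone arrays. Median intensities of the 10 ozone arrays lay between 175 and 180.01 units.

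**Figure D1:**
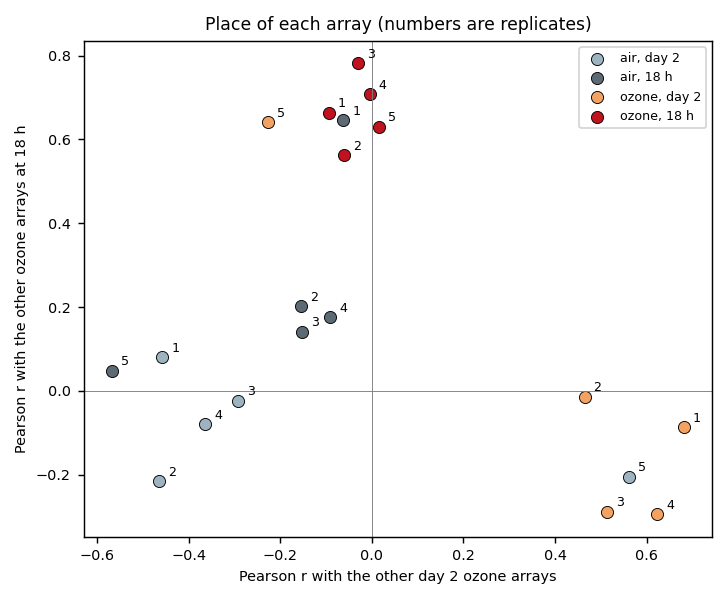
Correlation of each of the 20 arrays from day 2 and 18 h with the mean of the other day 2 ozone arrays (x axis) and of the other ozone arrays at 18 h (y axis), colour by labelled group and number by replicate. Day 2 ozone replicate 5 and air replicate 1 at 18 h sit among the ozone arrays at 18 h (r = 0.64 and 0.65), and day 2 air replicate 5 sits among the day 2 ozone arrays (r = 0.56).

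Day 2 ozone replicate 5 enters every result of this comparison. Of the 1161 genes that passed the test, it was the day 2 array nearest to the 18 h side in 970 (83.5%), and it lay inside the range of the 18 h arrays in 612 (52.7%). For the other day 2 arrays the second share was 1.1% to 4.3%. Without it, 2364 probe sets passed in place of 1511, and 1487 probe sets passed in the same direction with and without it. An array picked because it lies away from its group widens the gap between groups when it is left out, so the larger count is not separate evidence. Values without it are given below beside the main results as "without replicate 5".

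Ozone livers differed widely between the end of exposure and 18 h later. Of 19062 probe sets with 1 gene, 1511 passed (7.93%) at an adjusted p under 0.05 in limma, 873 higher (4.58%) and 638 lower (3.35%) at 18 h. When the brightest probe set stood for its gene, 1161 of 13437 genes passed (8.64%), 731 of them higher (5.44%) and 430 lower (3.2%). These shares are the background for every list below. Most changes were small: the median size among the genes that passed was 0.25 (log2). At least 2-fold rises numbered 8 (0.0595%), and falls of that size 8 (0.0595%). In 524 genes (3.9%) all 5 arrays at 18 h lay above all 5 of day 2, and in 232 (1.73%) below. The median log2 difference over all genes was 0.01. Leaving out day 2 ozone replicate 3 or 4 reduced the count of probe sets to 757 and 706. Of the 93 named genes that passed, 35 no longer did without replicate 3 and 32 without replicate 4, with no change of sign; Lpin2, Cpt1a, Ppargc1a, Klf15, Edem1, Prlr, Por, Usp2 and Per1 were among them in both. Noct, Nr1h4, Pcp4l1 and Sesn2 were lost in 9 of the 10 fits without 1 ozone array, Fdps, Per1, Por and Usp2 in 8. Angptl4, Ddit3, Igfals, Ldha, Prox1, Sod1, Tpmt and Zfp354a were lost in 7 of them, and Cps1 in 6.

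**Figure D2:**
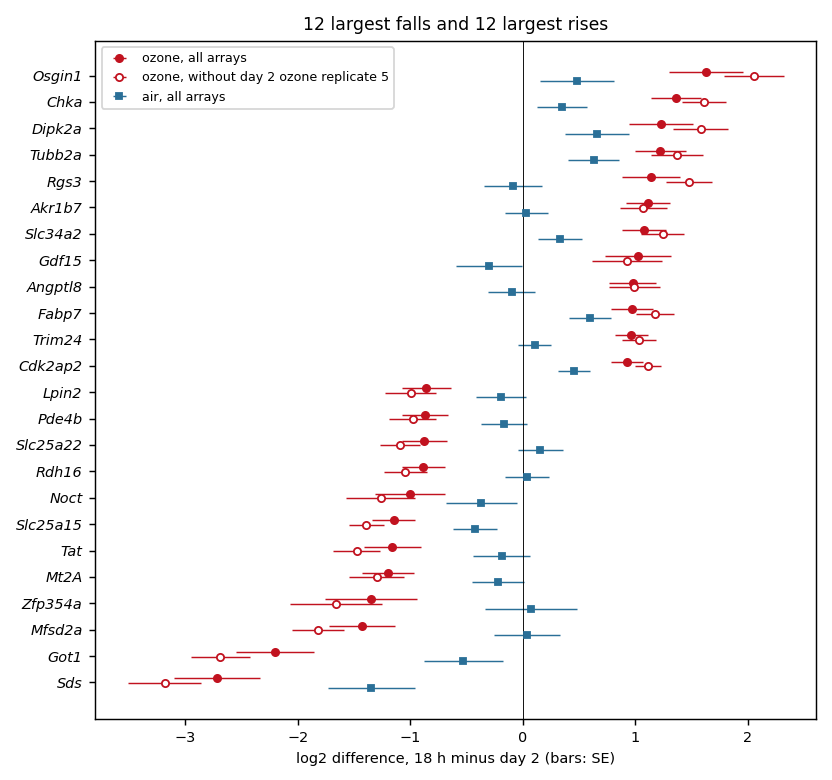
Log2 difference, 18 h minus day 2, with SE bars, for the 12 largest falls and 12 largest rises that passed in ozone livers; filled circles use all arrays, open circles leave out day 2 ozone replicate 5, and squares show air livers. The ozone values run from -2.72 for Sds to 1.63 for Osgin1, and none of these 24 genes passed in air.

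The 2 largest falls were in genes of amino acid breakdown, Sds and Got1. Sds, serine dehydratase, which turns serine into pyruvate, read 4779, 3379, 5018, 4920.2 and 879.8 units on day 2 ozone replicates 1 to 5, and 571, 401, 586, 360.5 and 513 at 18 h. The groups did not overlap, and replicate 5 was the low array of day 2. The log2 difference of Sds was -2.72 ± 0.38 (SE, n = 5 and 5, adjusted p = 0.00013), a 6.58-fold fall, and -3.18 without replicate 5. In air livers Sds went from 1352, 3118, 3669.6, 2585 and 4561 to 665, 1178, 732, 1179 and 2429.6, a difference of -1.35 ± 0.38 that did not pass (adjusted p = 0.21).

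Got1, the cytosolic aspartate aminotransferase, fell 4.6-fold. It read 4740.4, 3291, 5119, 5349 and 829.9 on day 2 and 775, 682, 772, 607 and 641 at 18 h, so that the 18 h arrays lay below every day 2 array and closest to replicate 5. The log2 difference was -2.20 ± 0.35 (adjusted p = 0.00028), and -2.69 without replicate 5. In air the intensities were 1069, 1854, 2115, 1406 and 4468 on day 2 and 899, 1523, 1374, 1341 and 1647 at 18 h (-0.53 ± 0.35, adjusted p = 0.84). The one high air value on day 2 belonged to air replicate 5, the array that lay with day 2 ozone.

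Tat, tyrosine aminotransferase, a classic glucocorticoid target, read 2552, 2520.3, 3036, 2403 and 864 on day 2 and 1042, 1302, 1058, 867 and 556 at 18 h. Only replicate 5 of day 2 lay inside the 18 h range. Its log2 difference was -1.16 ± 0.25 (adjusted p = 0.0042), and -1.48 without replicate 5. Slc25a15, the mitochondrial ornithine carrier of the urea cycle, read 2943, 2489, 4084, 3755 and 1391 and then 1311, 1304, 1246, 1219.9 and 1094, with no overlap. It fell by 1.15 ± 0.19 (adjusted p = 0.00037). Hal, histidine ammonia-lyase, fell by 0.85 ± 0.16 and Agxt, which transfers the amino group of alanine to glyoxylate, by 0.67 ± 0.13. For Agxt the day 2 arrays (879 to 1390.1) and the 18 h arrays (646 to 839.9) were separate.

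The amino acid catabolism and urea cycle list held 25 measured genes, of which 15 fell and 0 rose, beside 3.2% of all genes that fell. The median of the list was -0.33, beside 0.01 for all genes, and 24 of 25 differences were below 0. Without replicate 5, 0 rose and 17 fell with a median of -0.44, and without replicate 4 of day 2, 9 fell with a median of -0.31. Among the urea cycle enzymes, Asl, which releases arginine and fumarate, fell by 0.60 ± 0.16, Arg1, arginase, by 0.41 ± 0.09, Ass1 by 0.33 ± 0.08 and Cps1, the entry enzyme, by 0.16 ± 0.05. Otc had a difference of 0.04 ± 0.05 and Nags, which makes the activator of Cps1, of -0.17 ± 0.08, and neither passed. Among the others, Oat fell by 0.55 ± 0.15, Gls2, liver glutaminase, by 0.48 ± 0.11, Aass, which opens the main route of lysine degradation, by 0.47 ± 0.12, Gpt2 by 0.37 ± 0.09 and Tdo2, which opens tryptophan breakdown, by 0.32 ± 0.08. The median of the same list in air was -0.06, with 0 of 25 genes past the threshold.

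**Figure D3:**
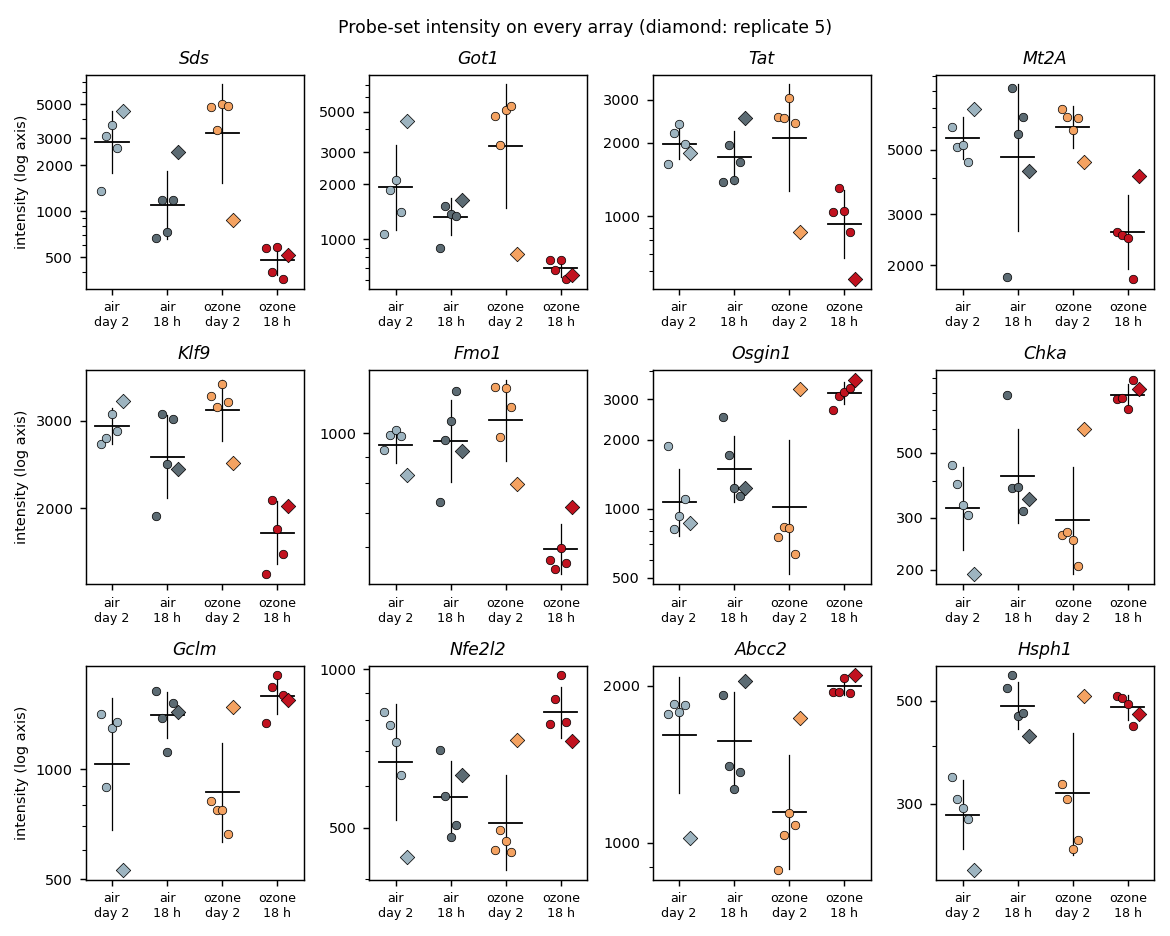
Probe-set intensity (log axis) on every array of the 4 groups from day 2 and 18 h for 12 genes, with the mean and SD of log2(value + 16) turned back to intensity as horizontal and vertical lines, and replicate 5 as a diamond. In day 2 ozone the diamond lies away from the other 4 arrays on the side of the 18 h arrays, for example at 3332 in Osgin1, within the 18 h range of 2693 to 3656.

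Genes that respond to glucocorticoids fell or did not pass. Of 19 measured, 0 rose and 5 fell, with a median of -0.21 and 16 differences below 0, and without replicate 5 the count of falls was 7. Mt2A, a metallothionein, which binds zinc and is induced by glucocorticoids and metals, read 6896, 6496, 5872, 6456 and 4544 on day 2 and 2605, 2547, 2474, 1795 and 4062 at 18 h. These groups did not overlap, although replicate 5 was the lowest of day 2 and the highest at 18 h. The difference was -1.20 ± 0.23 (adjusted p = 0.0014). The air arrays at 18 h were spread over 1820.5 to 8181 for this gene, more widely than either ozone group, and the lowest was replicate 1, the array that lay with ozone at 18 h.

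Klf9, a transcription factor induced by glucocorticoid and thyroid hormone, read 3364, 3194, 3562, 3265 and 2467 on day 2 and 1470.5, 2078, 1815, 1619 and 2015 at 18 h, with every 18 h array lower. It fell by 0.81 ± 0.12 (adjusted p = 0.00013), and the air difference was -0.20 ± 0.12. Klf15, which promotes amino acid breakdown and gluconeogenesis, fell by 0.58 ± 0.16. A dimmer probe set of Klf15 also passed, at -0.27 ± 0.07, while its dimmest showed 0.03 ± 0.04. Per1, a clock gene that is also a glucocorticoid target, fell by 0.25 ± 0.08. Tat, described above, was the fifth gene. Other members of the list did not pass: Fkbp5, an immunophilin that dampens glucocorticoid signalling, had -0.37 ± 0.18, Tsc22d3 -0.12 ± 0.18, Sgk1 -0.11 ± 0.31, Igfbp1 -0.21 ± 0.37 and Nr3c1, the receptor itself, 0.19 ± 0.11.

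In gluconeogenesis and fasting signalling 3 of 16 genes fell and 0 rose. Slc37a4, the carrier that brings glucose 6-phosphate to its phosphatase, fell by 0.55 ± 0.12, with 1713 to 2641 units on day 2 and 1488 to 1602 at 18 h, without overlap. Ppargc1a, a coactivator of the fasting response, fell by 0.65 ± 0.17, and Fbp1, fructose bisphosphatase, by 0.17 ± 0.05. Pck1, which limits gluconeogenesis, had a difference of -0.14 ± 0.07 (adjusted p = 0.26). Mfsd2a, a membrane carrier of lysophospholipids that is induced in the fasted liver, was the third largest fall of all. It read 1352, 1305, 1655, 1402 and 358 on day 2 and 324, 576, 382, 374 and 344 at 18 h. Day 2 replicate 5 lay among the 18 h arrays and the other 4 lay above them all. The difference was -1.43 ± 0.29 (adjusted p = 0.0025), against 0.04 ± 0.29 in air. Lpin2, a phosphatidate phosphatase of fat synthesis, fell by 0.86 ± 0.22, with -0.12 ± 0.04 on a dimmer probe set that did not pass.

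Further large falls were in signalling, transport and redox genes. Pde4b, a phosphodiesterase that degrades cyclic AMP, read 488, 423, 411, 307 and 268 on day 2 and 188, 211, 208, 190.1 and 183 at 18 h. The groups were separate, and the fall was 0.87 ± 0.20 (adjusted p = 0.0069). Slc25a22, a mitochondrial glutamate carrier, fell by 0.87 ± 0.20, and Rdh16, a retinol dehydrogenase, by 0.88 ± 0.19. Zfp354a, a zinc finger protein, read 870.1, 617, 1478, 1422 and 337 and then 306, 562, 299, 258 and 232, and its difference of -1.35 ± 0.41 was close to the threshold (adjusted p = 0.037). Noct, a rhythmic phosphatase of NADP(H), had a difference of -1.003 (adjusted p = 0.043). Noct no longer passed without any 1 of the other 9 ozone arrays, nor Zfp354a without any 1 of 7 of them, while both passed without day 2 ozone replicate 5.

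Fmo1, a flavin monooxygenase of drug metabolism, read 1234, 986, 1225, 1126 and 798 on day 2 and 566, 542, 597, 559 and 719 at 18 h. No 18 h array reached the lowest day 2 array, and the difference was -0.82 ± 0.12 (adjusted p = 0.00015). Of 18 xenobiotic P450 genes and partners, 0 rose and 3 fell: Por, the electron donor of cytochromes P450, by 0.81 ± 0.25, Cyp17a1 by 0.55 ± 0.12, and Nr1i2, the drug receptor PXR, by 0.49 ± 0.12. Among 13 phase 2 conjugation enzymes, Sult1a1, a sulfotransferase, fell by 0.40 ± 0.09 and Tpmt by 0.25 ± 0.07, and 0 rose.

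Short promoter stretches are shown for 5 genes picked because they rose and held the heat shock or antioxidant motif that genes of their list are known for. The stretches come from RefSeq promoter windows on GRCr8, which reach from 250 bases before to 50 after each gene's start, and 168 of the 206 genes named here by the rule had such a window. Capitals mark the match, and each is written 5′ to 3′ along the gene's strand. The heat shock motif was GAANNTTC and the antioxidant motif TGACNNNGC, searched on both strands, so a match on the other strand shows the reverse complement of the motif, as in Gclm and Ugdh.
Hsph1, chr12:10427302-10427379, plus strand: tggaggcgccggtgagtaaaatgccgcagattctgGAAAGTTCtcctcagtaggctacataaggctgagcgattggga
Dnajb1, chr19:41431092-41431187, minus strand: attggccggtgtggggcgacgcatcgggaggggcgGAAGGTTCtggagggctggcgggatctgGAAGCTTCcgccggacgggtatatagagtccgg
Fkbp4, chr4:163398013-163398090, minus strand: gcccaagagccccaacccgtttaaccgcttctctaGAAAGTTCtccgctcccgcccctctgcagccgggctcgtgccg
Gclm, chr2:213031928-213032006, plus strand: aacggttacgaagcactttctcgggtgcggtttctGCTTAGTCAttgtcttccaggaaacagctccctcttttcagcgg
Ugdh, chr14:43202276-43202354, plus strand: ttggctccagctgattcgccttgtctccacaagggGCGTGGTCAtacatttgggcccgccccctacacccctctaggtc

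The heat shock motif began at position -31 in Hsph1, at -11 and 18 in Dnajb1 and at -137 in Fkbp4, counted from the gene's start. It stood in 9 of 12 windows of the heat shock list (75%) and in 8.59% of all 33469 windows. The antioxidant motif began at -172 in Gclm and -207 in Ugdh. It stood in 8 of 23 windows of the NRF2 and glutathione list (34.8%) and in 12.1% of all windows. Among windows of the 12 largest falls 3 of 10 (30%) also held it, and among those of the 12 largest rises 1 of 13 (7.69%). Osgin1 had a heat shock motif at -51. Motif and rise did not always go together. Hsp90ab1 and Hspa1a rose without the heat shock motif in their windows, while Hspd1 and Hspe1 held it and did not pass. Sod1 rose without the antioxidant motif, and no match of it was found for Gclc, which also rose. A match is a stretch of letters and does not show that a factor was bound.

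Osgin1, a stress-induced growth inhibitor and a known NRF2 target, was the largest rise. It read 756, 833, 826, 634 and 3332 on day 2 and 2693, 3114, 3232, 3356 and 3656 at 18 h. Replicates 1 to 4 of day 2 lay far below all 18 h arrays, and replicate 5 lay among them. The log2 difference was 1.63 ± 0.33 (adjusted p = 0.0021), a 3.09-fold rise, and 2.05 without replicate 5. Air livers read 1879, 819, 929, 1110.1 and 872 on day 2 and 2522, 1725, 1236, 1137 and 1231 at 18 h (0.48 ± 0.33, adjusted p = 0.85).

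Both subunits of glutamate cysteine ligase, which limits glutathione synthesis, rose. Gclm, the modifier subunit, read 820.0, 773, 773, 664 and 1485 on day 2 and 1341, 1684, 1809.8, 1598 and 1546 at 18 h, and only replicate 5 of day 2 reached the 18 h range. It rose by 0.86 ± 0.20 (adjusted p = 0.0061), and Gclc, the catalytic subunit, by 0.68 ± 0.14 (adjusted p = 0.0033). Ugdh, which makes the UDP-glucuronate used for conjugation, rose by 0.76 ± 0.15, and Sod1, superoxide dismutase, by 0.13 ± 0.04. These 4 were the rises among 23 NRF2 and glutathione genes, with 0 falls and a median of 0.07. Without replicate 5 the count was 5. Hmox1, heme oxygenase, with 0.02 ± 0.20, Srxn1, sulfiredoxin, with -0.10 ± 0.05, and Nqo1, with 0.34 ± 0.14, did not pass. Nfe2l2, the gene of NRF2 itself, read 455, 495, 471, 449.5 and 735 on day 2 and 787, 880.1, 974, 795 and 732 at 18 h, and rose by 0.68 ± 0.14 (adjusted p = 0.0018). In air, Gclm had 0.44 ± 0.20, Gclc 0.42 ± 0.14 and Nfe2l2 -0.21 ± 0.14, and none of them passed.

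Chka, choline kinase, the first enzyme of phosphatidylcholine synthesis from choline, was the second largest rise. Its intensities were 263, 268, 252, 205 and 599.6 on day 2 and 760.3, 764, 701, 884 and 821 at 18 h. Every 18 h array lay above every day 2 array, with replicate 5 the closest. The difference was 1.36 ± 0.22 (adjusted p = 0.0003), and 1.61 without replicate 5. Tubb2a, a beta tubulin, read 915, 705, 787, 595 and 1269 and then 2379.6, 1737, 2111, 1630.5 and 1964, also without overlap, and rose by 1.22 ± 0.23. Rgs3, which shortens G protein signalling, rose by 1.14 ± 0.26 and Dipk2a by 1.23 ± 0.29. Dimmer probe sets of these genes did not pass, at 0.02 ± 0.06 for Rgs3 and -0.05 ± 0.05 and 0.03 ± 0.05 for Dipk2a.

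Akr1b7, an aldose reductase family member, read 161, 267, 122, 142 and 141 on day 2 and 372, 296, 489, 499 and 240.3 at 18 h, with an overlap between day 2 replicate 2 and 18 h replicate 5. It differed by 1.11 ± 0.20 (adjusted p = 0.00061), and by 0.03 ± 0.20 in air, whose arrays read 136 to 180.0 on day 2 and 124 to 203 at 18 h. Slc34a2, a sodium phosphate carrier, rose by 1.08 ± 0.20, with 202 to 384 units on day 2 and 401 to 626 at 18 h. Trim24, a coregulator of nuclear receptors, read 138 to 184 on day 2 and 211 to 355 at 18 h, a rise of 0.97 ± 0.15. Fabp7, a fatty acid-binding protein, rose by 0.97 ± 0.19 and Cdk2ap2 by 0.93 ± 0.14. In each of these last 4 genes the groups did not overlap.

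Secreted hormones and stress signals were among the rises. Angptl8, which is induced by feeding and inhibits lipoprotein lipase, read 830.2, 959, 644, 821 and 849.8 on day 2 and 1292, 2259.6, 2319, 1256 and 1305 at 18 h, with all 18 h arrays higher. It rose by 0.98 ± 0.21 (adjusted p = 0.0034). Its relative Angptl4, a fasting-induced inhibitor of the same lipase, rose by 0.76 ± 0.23. Fgf21, a hepatic hormone of fasting and stress, read 135, 139.6, 175, 177 and 214 and then 206, 542, 417, 373 and 219. Replicates 2 to 4 at 18 h were the high arrays, the other 2 lay near day 2, and the rise was 0.93 ± 0.19 (adjusted p = 0.0024). Gdf15, a stress hormone that lowers appetite, read 342, 257, 215, 222 and 176 on day 2 and 213, 1449, 927, 376 and 277 at 18 h. Replicates 2 and 3 were high at 18 h, and the other 3 lay near or within the day 2 range. Its difference of 1.03 ± 0.29 (adjusted p = 0.027) no longer passed without either of these 2 arrays, nor without day 2 ozone replicate 3 or 4.

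Chaperones rose in ozone livers, and 3 of them also passed in air. Of 14 heat shock genes, 8 rose and 0 fell in ozone livers, with a median of 0.32, and 11 rose without replicate 5. Hsph1, a large HSP110 chaperone, read 331, 307, 240.1, 251 and 512 on day 2 and 512, 507, 493, 442 and 469.8 at 18 h, where replicate 5 of day 2 was level with the highest array at 18 h and the other 4 lay below all 5. It rose by 0.59 ± 0.13 (adjusted p = 0.0044). In air livers it read 342, 307, 294, 278 and 216 and then 533, 568, 464, 472 and 421, a rise of 0.75 ± 0.13 (adjusted p = 0.016). Hspb1, a small chaperone, rose by 0.44 ± 0.11 in ozone and 0.61 ± 0.11 in air, and Hsp90ab1 by 0.44 ± 0.09 and 0.46 ± 0.09. A second probe set of Hsp90ab1 showed 0.08 ± 0.12 in ozone. Hspa8, the constitutive HSP70, rose by 0.52 ± 0.12 in ozone and had 0.51 ± 0.12 in air. Fkbp4 rose by 0.42 ± 0.09, Hspa1a, whose near-identical copies can share probes, by 0.42 ± 0.10, Dnajb1 by 0.41 ± 0.09 and Cryab by 0.16 ± 0.04. The mitochondrial chaperones Hspd1 (-0.11 ± 0.05) and Hspe1 (0.07 ± 0.05) did not pass.

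The air median of the heat shock list was 0.21, and 3 of its members were among the 8 genes that passed in air (0.0595% of genes). Stip1, a cochaperone of HSP70 and HSP90, also passed in both, with 0.37 ± 0.07 in ozone and 0.36 ± 0.07 in air. The median difference between the ozone and the air change over the list was 0.03. The difference itself was -0.16 ± 0.18 for Hsph1 and -0.17 ± 0.15 for Hspb1, and neither passed.

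Genes of the endoplasmic reticulum moved in both directions. Of 20 genes of the unfolded protein response, 3 rose and 2 fell. Creld2 rose by 0.45 ± 0.12, Manf, a secreted stress protein, by 0.43 ± 0.11 and the disulfide isomerase Pdia4 by 0.26 ± 0.07. Edem1, which directs misfolded glycoproteins to degradation, read 5008, 4353, 6591, 6637 and 2899 on day 2 and 3102, 3001, 2499, 2658 and 2570.4 at 18 h. Only replicate 5 of day 2 lay inside the 18 h range, and the fall was 0.82 ± 0.23 (adjusted p = 0.021). Dimmer probe sets of Edem1 also passed, at -1.05 ± 0.25 and -0.84 ± 0.23, while its dimmest did not, at -0.04 ± 0.03. A dimmer probe set of Atf6 did not pass, at -0.08 ± 0.04. Atf6, a sensor of the response, fell by 0.22 ± 0.06, and Hspa5, its main chaperone, had 0.24 ± 0.11 and did not pass. Of 19 genes of the integrated stress response, Gdf15 and Ddit3, the transcription factor CHOP (0.34 ± 0.10), rose, and Sesn2 fell by 0.40 ± 0.13 at an adjusted p of 0.0496. Sesn2 no longer passed without any 1 of the ozone arrays other than day 2 replicate 5, and its dimmer probe set showed -0.03 ± 0.04. Atf3, with 1.14 ± 0.51, did not pass.

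Bile acid genes included rises and a fall. Of 20 genes, 4 rose and 1 fell. Abcc2, an export pump of the canaliculus, read 887, 1037, 1138, 1079 and 1736 on day 2 and 1948, 1949, 2068, 1933 and 2094 at 18 h, with no overlap. It rose by 0.79 ± 0.15 (adjusted p = 0.00084), against -0.04 ± 0.15 in air. Baat, which joins bile acids to taurine and glycine, rose by 0.47 ± 0.10, the uptake carrier Slco1a4 by 0.32 ± 0.08 and the bile acid receptor FXR, Nr1h4, by 0.25 ± 0.08. Nr1h4 had an adjusted p of 0.044 and no longer passed without any 1 of the ozone arrays other than day 2 replicate 5, nor with median centring or quantile normalization. Cyp8b1, which makes cholic acid, fell by 0.75 ± 0.15 (adjusted p = 0.0015). It had -0.57 ± 0.15 in air (adjusted p = 0.14). Cyp7a1, the rate-limiting enzyme of bile acid synthesis, had 0.77 ± 0.44 and did not pass.

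In cholesterol synthesis and uptake, 3 of 18 genes rose and 1 fell, with a median of 0.25 in ozone and -0.25 in air, and without replicate 5, 2 rose and 2 fell. Fdps, which makes farnesyl diphosphate, read 1764, 2329, 1718, 2111 and 1890.1 on day 2 and 2349, 2877, 2586, 3252 and 2642 at 18 h and rose by 0.48 ± 0.15 (adjusted p = 0.046). The groups did not overlap, but its adjusted p was 0.057 without replicate 5. Ebp, a sterol isomerase, rose by 0.28 ± 0.07. Srebf2, which encodes the regulator SREBP2, rose by 0.26 ± 0.07. A dimmer probe set of Srebf2 showed -0.04 ± 0.04. Hsd17b7 fell by 0.50 ± 0.13 and had -0.52 ± 0.13 in air. Idi1 (0.58 ± 0.24), Fdft1 (0.46 ± 0.18) and Insig1 (-0.73 ± 0.26) did not pass.

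No gene of fatty acid and triglyceride synthesis passed, of 19 measured, at a median of 0.12 in ozone and -0.18 in air. Acly, which supplies acetyl-CoA, had 0.71 ± 0.29, with all 18 h arrays above all day 2 arrays, and Srebf1, the lipogenic transcription factor, 0.58 ± 0.23. In the list for fat oxidation and ketone production (23 genes), Fgf21 and Angptl4 rose, and Cpt1a, which admits fatty acids to mitochondria, fell by 0.77 ± 0.20. Cpt1a read 2318, 2425, 2924, 3369 and 1464 on day 2 and 1671, 1618, 1456, 1227 and 1153 at 18 h, and replicate 5 was the lowest of day 2. The list's median was -0.07.

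**Figure D4:**
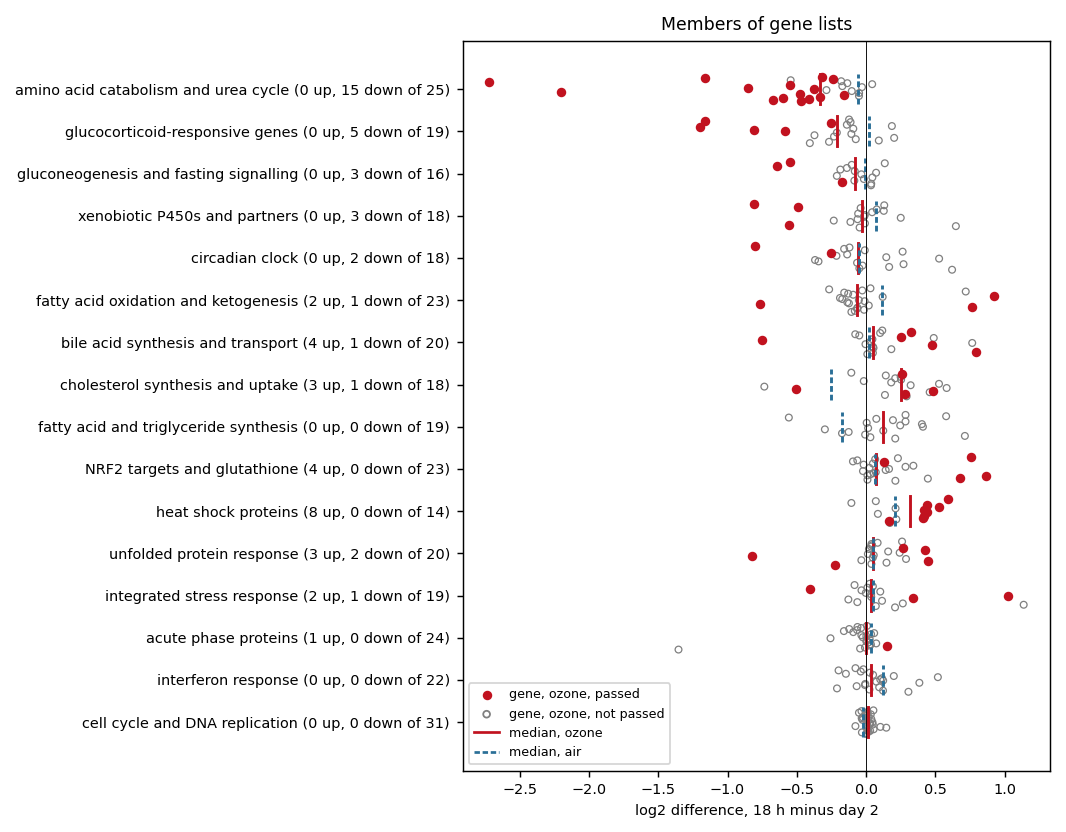
Log2 difference, 18 h minus day 2, in ozone livers for each member of 16 gene lists (filled, passed; open, not passed), with the list's median in ozone (solid line) and in air (dashed line) and the counts of rises and falls. The amino acid list lies furthest to the left (median -0.33) and the heat shock list furthest to the right (median 0.32, with 0.21 in air), while the 31 cell cycle genes lie close to 0.

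Clock genes gave 2 falls and 0 rises of 18. Usp2 fell by 0.80 ± 0.25 and Per1 by 0.25 ± 0.08. Bmal1 had 0.17 ± 0.09, Nr1d1 -0.21 ± 0.11, Dbp -0.34 ± 0.26 and Nfil3 0.53 ± 0.19, with 0.20 ± 0.09, -0.33 ± 0.11, -0.62 ± 0.26 and 0.43 ± 0.19 in air. None of these 4 passed in either. Among growth hormone genes 2 of 17 rose, Prlr, the prolactin receptor, by 0.60 ± 0.16 and Igfals, which carries IGF1 in the blood, by 0.59 ± 0.17. Ribosomal proteins gave 2 rises of 12, Rps3 by 0.19 ± 0.05 and Rpl7 by 0.17 ± 0.04, although a dimmer probe set of Rpl7 showed -0.03 ± 0.05, and oxidative phosphorylation 2 falls of 16, Ndufs1 by 0.24 ± 0.07 and Ndufs3 by 0.19 ± 0.05. Of 16 nuclear receptors and liver transcription factors 1 rose (Nr1h4) and 3 fell, Nr1i2, Esrra by 0.23 ± 0.07 and Prox1 by 0.16 ± 0.05.

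Inflammatory genes showed few calls. With 8.64% of all genes passing, lists of this size would hold few calls by that share alone. Of 24 acute phase proteins 1 rose, Apcs, the serum amyloid P component, by 0.15 ± 0.04, and the list's median was -0.0034. A2m, which rises strongly in inflamed rat liver, had -1.35 ± 0.45 (adjusted p = 0.06). It read 2138, 3106, 258, 312 and 338 on day 2 and 337, 254, 243, 257 and 275 at 18 h, so that only replicates 1 and 2 of day 2 were high. In acute phase and cytokine signalling (17 genes), chemokines and adhesion (18), interferon response (22), cell cycle (31), p53 targets (12), ribosome biogenesis (17) and the proteasome (15), 0 genes passed in limma by their brightest probe set. Il6st, the signalling receptor gp130, missed on its brightest probe set (0.29, adjusted p = 0.063), but its other 3 passed, at 0.30 ± 0.07, 0.69 ± 0.15 and 0.41 ± 0.12. Stat3 had -0.34 ± 0.14 and Cxcl10 0.31 ± 0.12. Of 18 immediate early genes Jund rose by 0.50 ± 0.14, although its dimmer probe sets did not pass, at -0.04 ± 0.04 and 0.09 ± 0.06. Egr1 had -1.61 ± 0.66 in ozone and -1.73 ± 0.66 in air, and passed in neither. Metallothionein and zinc genes gave 1 fall of 8, Mt2A, and 1 rise, the zinc importer Slc39a10 (0.36 ± 0.06). Iron handling gave 1 fall of 12, Hfe, by 0.15 ± 0.04, and glycolysis 1 fall of 12, Ldha, by 0.29 ± 0.09.

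Few markers of the liver's cell types passed outside the endothelium. Of 9 defining hepatocyte markers only Cps1 passed, and their summed intensity was 76792 to 79531 on day 2 and 70794 to 79567 at 18 h. Of 9 endothelial markers, 3 rose without overlap, beside 3.9% of all genes that lay wholly higher at 18 h. They were Stab2, a scavenger receptor of sinusoidal endothelium, by 0.28 ± 0.07, Tek by 0.27 ± 0.05 and Stab1 by 0.23 ± 0.05. The median of the endothelial list was 0.05 in ozone and 0.12 in air, where 0 of its genes passed. Pecam1 (0.03 ± 0.07) and Vwf (0.00 ± 0.04) did not pass. The endothelial sum was 3231 to 3741 on day 2 and 3392 to 4101 at 18 h. Of 11 Kupffer cell and macrophage markers only Lyz2, lysozyme, rose (0.35 ± 0.10), and the sum was 4461 to 6261 on day 2 and 4922 to 6453 at 18 h. Markers of neutrophils and monocytes (9), lymphocytes (12), stellate cells (14), cholangiocytes (8), red blood cells (4), and the pancreas and fat depots (12) gave 0 calls. Sums of neutrophil markers were 1176 to 1299 and then 1203 to 1311. The part of cell composition in the changes above was not tested.

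Air livers over the same hours gave far fewer calls. In limma, 12 of 19062 probe sets passed (0.063%), for 8 genes (0.0595%), and 1470 had an unadjusted p under 0.05, against 3635 in ozone. Over all 13437 genes, the ozone and air differences had the same sign in 7923. Among the 1161 genes that passed in ozone, the air difference had the same sign in 1002 (86.3%), with a median size of 0.09 against 0.25. These genes were picked for a large ozone change, which by itself makes the ozone value the larger one.

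**Figure D5:**
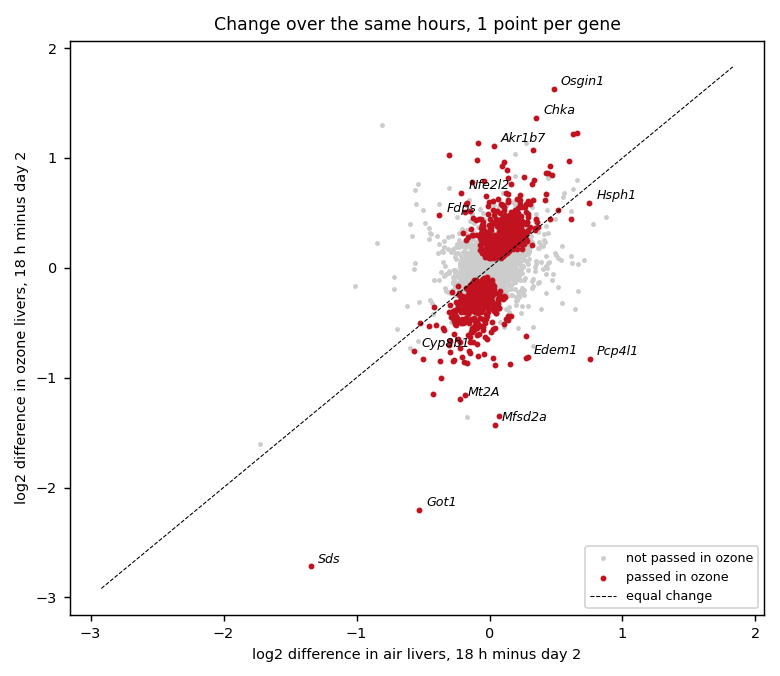
Log2 difference, 18 h minus day 2, in air livers (x axis) and ozone livers (y axis) for 13437 genes, with genes that passed in ozone in red and a dashed line of equal change. Hsph1 lies near the line (0.59 and 0.75), while Mfsd2a and Akr1b7 changed in ozone (-1.43 and 1.11) with air values near 0.

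The difference between the ozone and the air change was tested directly and 0 of 19062 probe sets passed in limma (0%), with 1337 at an unadjusted p under 0.05. A miss of the threshold does not show that the changes were alike. The smallest adjusted p was 0.052, for Phyh, which starts the peroxisomal breakdown of phytanic acid. It read 6339, 6377, 6538, 6799.6 and 5435 on day 2 and 4551, 4910.4, 4906, 4038 and 4299 at 18 h after ozone, and 5148, 5257, 5190.1, 4749 and 5599.8 and then 5054, 6417, 5722, 6253 and 4920.1 after air, a difference between changes of -0.59 ± 0.10. Next among the lower ones came Fmo1 (-0.85 ± 0.17), Dhdds (-0.44 ± 0.09), Pcp4l1 (-1.58 ± 0.37), Trim2 (-0.39 ± 0.09) and Acot12 (-0.60 ± 0.15). The higher ones with the smallest p were Nfe2l2 (0.89 ± 0.19, adjusted p = 0.22), Ebp (0.45 ± 0.10), Tmcc3 (0.76 ± 0.18), Rnf111 (0.33 ± 0.08), Trim24 (0.86 ± 0.21) and Tjp1 (0.42 ± 0.10). Tjp1 rose in ozone by 0.30 ± 0.07, but its dimmer probe set showed -0.04 ± 0.05. Got1 had -1.67 ± 0.49 (adjusted p = 0.41) and Sds -1.37 ± 0.54 (adjusted p = 0.57).

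The count for this difference depended on the arrays that lay with another group. It was 89 without day 2 ozone replicate 5, 183 without day 2 air replicate 5, and 1224 without these and air replicates 1 and 5 at 18 h. Without all 7 arrays closer to another group, an alternative chosen after seeing the data, it was 762. Without both replicate 5 of day 2 ozone and replicate 5 of ozone at 18 h it was 45. Ozone replicate 5 at 18 h was counted as standing apart for its actin ratio of 3.5, the highest of all arrays. That ratio was not past the limit used for the flags below, and the array lay with its own group (r = 0.63). Each of the other arrays was left out because it lay closer to another group, which tends to widen gaps and narrow the spread by itself.

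Ozone and air levels at each harvest share arrays with the changes above and are given only side by side. On day 2, ozone minus air was 0.75 ± 0.35 for Got1, 0.19 ± 0.38 for Sds, 0.09 ± 0.29 for Mfsd2a, -0.49 ± 0.15 for Abcc2 and -0.37 ± 0.14 for Nfe2l2, and 22 genes passed (0.164%). At 18 h it was -0.93 ± 0.35 for Got1, -1.18 ± 0.38 for Sds, -1.38 ± 0.29 for Mfsd2a, 0.35 ± 0.15 for Abcc2 and 0.52 ± 0.14 for Nfe2l2, and 96 genes passed (0.714%). Mfsd2a passed at 18 h (adjusted p = 0.022), as did Akr1b7 (1.12 ± 0.20, adjusted p = 0.0054), Fmo1 (-0.69 ± 0.12, adjusted p = 0.0054), Tmcc3 (0.68 ± 0.12) and Ebp (0.42 ± 0.07). For Sds, air at 18 h (665 to 2429.6) lay between the ozone values of day 2 replicates 1 to 4 and those at 18 h (360.5 to 586).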

How the data were processed

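Liver RNA of 32 samples was measured on single-colour arrays. The deposited values are linear-scale intensities, 1 per probe set. The submitters' processing notes name PLIER and Affymetrix Expression Console for this step by the authors, and state no version, no background correction and no scaling of arrays to each other. The table held 31139 probe sets; 97 controls, 11407 to which the platform annotation gives no gene, and 573 with several genes were left out, which left 19062. RefSeq's gene table held 18983 of these. Nonspecific-binding probes read 87.28 to 91.42 units on the ozone arrays, so folds of dim genes are understated.

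Log2(intensity + 16) was fitted in R 4.3.3 with limma 3.58.1 (lmFit, eBayes with intensity trend) on 6 group means of all 32 arrays, without a block. P-values are two-sided with Benjamini-Hochberg adjustment over 19062 probe sets and a threshold of 0.05. "Passed", "rose" and "fell" refer to this test, errors of differences are SE, and the brightest probe set stood for a gene. Tables were made in Python 3.11.15 (pandas 2.3.3, numpy 2.4.6), figures in matplotlib 3.10.9, and the fit was tested on simulated data.

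Named were the 12 largest rises and falls, 6 genes in each direction by the difference between changes, and the 4 members with the smallest p from each of 39 lists (up to 8 for clock, lipid, cholesterol, unfolded protein and cell cycle lists), in all 206 genes, of which 93 passed. Other list members are given as examples, chosen after their values were seen. The comparison, the lists and the alternatives were chosen with earlier results of these data known. Replicate numbers did not pair the arrays.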

Additional observations from a re-analysis of the deposited data

Results flagged for a closer look

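Among the 93 named genes that passed, a highest or lowest array whose gap to its neighbour exceeded 0.71 of its group's range was looked for in both ozone groups, along with 4 array measures. Of 194 such groups, 23 were past this limit. Chance gives about 1 in 20 among independent groups, a rate that does not hold here. The genes were read on the same arrays and were chosen because they passed. In 19 genes the array was replicate 5 of day 2 ozone. The gap as a share of the range was 0.838 for Osgin1, 0.754 for Chka, 0.907 for Dipk2a, 0.857 for Slc34a2, 0.841 for Fabp7, 0.776 for Trim24, 0.772 for Sds, 0.738 for Got1, 0.843 for Mfsd2a and 0.813 for Tat. It was 0.806 for Nfe2l2, 0.881 for Fbp1, 0.780 for Hal, 0.728 for Cyp8b1, 0.748 for Ugdh, 0.740 for Gclm, 0.719 for Slc39a10, 0.746 for Hsp90ab1 and 0.720 for Lyz2. At 18 h it was 0.731 for Trim24 (replicate 5), 0.715 for Mfsd2a (replicate 2) and 0.836 for Sesn2 (replicate 2). The nonspecific-binding signal of day 2 ozone replicate 4 was the remaining one, with 0.732.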

How the results depend on the processing

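In ozone livers 1511 probe sets passed, 873 higher and 638 lower. Leaving out 1 array at a time gave 706 (without day 2 ozone replicate 4) to 2364 (without replicate 5), with 416 to 1323 higher and 290 to 1041 lower. Array weights gave 2873 (1802 higher, 1071 lower), and groups that do not overlap, an alternative chosen after seeing the data, gave 967, of which 359 lower. The offset, the dimness filter, 1 probe set per gene, median centring, quantile normalization, no intensity trend and a fit of the 10 ozone arrays alone kept the count within 1.5 times. In the fit of the 10 ozone arrays alone, 16 of the 93 named genes that passed no longer did. They were Gdf15, Per1, Hsd17b7, Fbp1, Ldha, Sod1, Pdia4, Creld2, Ddit3, Jund, Tpmt, Ndufs3, Ndufs1, Hfe, Esrra and Cps1.

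The replicate number as a block (a replicate block) gave 1279 probe sets in ozone, 10 in air and 0 for the difference between changes. Same-numbered ozone arrays did not deviate together (r between -0.29 and 0.23), so the numbers were not taken as pairs; 11 of the 93 named genes that passed no longer did.

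For the difference between changes, 0 passed. Array weights gave 989 (587 higher, 402 lower), leaving out both ozone arrays that stood apart 45 (19 and 26), leaving out day 2 ozone replicate 5, day 2 air replicate 5 and 18 h air replicates 1 and 5 1224 (804 and 420), and leaving out all 7 arrays closer to another group, chosen after seeing the data, 762 (406 and 356). The dimness filter, 1 probe set per gene and median centring each gave 1, which was lower. Leaving out 1 array gave 0 to 183, with 0 to 111 higher and 0 to 72 lower; the top of each range was without day 2 air replicate 5.

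In air, 12 passed. Leaving out 1 array gave 0 (without day 2 air replicate 3 or 4, or 18 h air replicate 2) to 93 (without 18 h air replicate 5), with 0 to 47 higher and 0 to 46 lower. Without day 2 air replicate 5 and 18 h air replicates 1 and 5 it was 265 (86 and 179), and without all 6 air arrays closer to another group, chosen after seeing the data, 96 (55 and 41). The cause of these shifts was not tested.

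Of the named genes that passed, none changed sign under these alternatives. Genes that did not pass and lay near 0 did. Cd3g was -0.0066 without both ozone arrays that stood apart, and with 1 array left out Serpina1 ranged from -0.052 to 0.0089, Ahsg from -0.068 to 0.0065, Alas2 from -0.055 to 0.0047 and Ahsp from -0.012 to 0.034. With 5 arrays a group, the median SE of a change was 0.05 and of the difference between changes 0.07, and values near the nonspecific-binding signal carry little information.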
